A study of Mus musculus with 14 samples.

Results

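Single haematopoietic stem cells (HSCs) of WT mice were divided by whether a count of Bach2 was found in them. Bach2 is a transcription repressor of the BACH family. The cells came from bone marrow depleted of lineage-positive cells and are labelled CD150+CD48-, a surface phenotype used to enrich HSCs, and they were profiled by MARS-Seq, a plate-based method that sequences the ends of polyadenylated RNA from single sorted cells. The classes were chosen by the Bach2 counts themselves: among WT cells with 500 or more counts in all, a cell with 1 or more Bach2 counts was Bach2-positive and a cell with 0 was Bach2-negative. The positive class held 152 of the 381 WT cells kept, and the negative class held the other 229. These are part of 768 wells on 4 plates (350W, 351W, 352W and 353W), of which 716 were kept, and 335 of those were Phf19 KO cells, set here beside the WT classes.

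Phf19 is a Polycomb-associated factor, and KO stands for its deletion. The WT and KO names come from the prefix of each well in the count tables, since the plates carry no genotype label. The floxed condition is the control of the series, and whether the WT cells are floxed is not stated. No source used here gives the promoter or agent that drives the deletion, the age of the animals, or whether plates came from separate animals. The p-values below compare classes within a plate. For measures of whole cells they rest on how that difference varied from plate to plate. For single genes they also draw on the spread of other genes. The variation between plates may be technical. WT and KO cells filled separate ranges of well numbers on every plate, so genotype and well position cannot be told apart. No cell name was shared by 2 tables.

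As background, BACH2 pairs with small MAF proteins and binds MAF recognition elements and AP-1-like sites, where it represses transcription. BACH1, its closest relative, and the NFE2 family compete for similar sites. In the mouse, Bach2 is best known in lymphoid cells, where it takes part in B cell maturation and class switching and in the restraint of effector T cells, and in progenitors it acts with Bach1 against myeloid genes.

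Bach2-positive cells were found on every plate. There were 44 of 95 WT cells on plate 350W (46.3%, exact 95% interval 36.0 to 56.8), 39 of 96 on 351W (40.6%, 30.7 to 51.1), 22 of 95 on 352W (23.2%, 15.1 to 32.9) and 47 of 95 on 353W (49.5%, 39.1 to 59.9). The mean share was 39.9% ± 11.7 (SD, n = 4 plates), with plate 352W lowest. Intervals cover counting error only. Since the counts define the classes, these values are a description and carry no test.

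The positive cells held 117, 110, 60 and 137 Bach2 counts on plates 350W to 353W, or 2.66, 2.82, 2.73 and 2.91 per positive cell. This raw mean per positive cell differed little between plates, also on 352W, where fewer cells were positive. It was not scaled for depth, and the class rule keeps each positive cell at 1 or more. Scaled to all counts of the positive cells, Bach2 included, the levels were 806, 657, 679 and 520 CPM (a unit defined below). The order of plates was then reversed, with 350W highest and 353W lowest, so an even Bach2 level across plates was not shown. Over the plates, 41 positive cells had 1 count, 39 had 2 and 72 had 3 or more, and the most in a cell was 8. The variance of Bach2 counts over all WT cells was 2.5, 2.76, 3.03 and 2.52 times the mean on the 4 plates, where counts drawn evenly from cells of equal depth would give a ratio near 1.

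**Figure D1:**
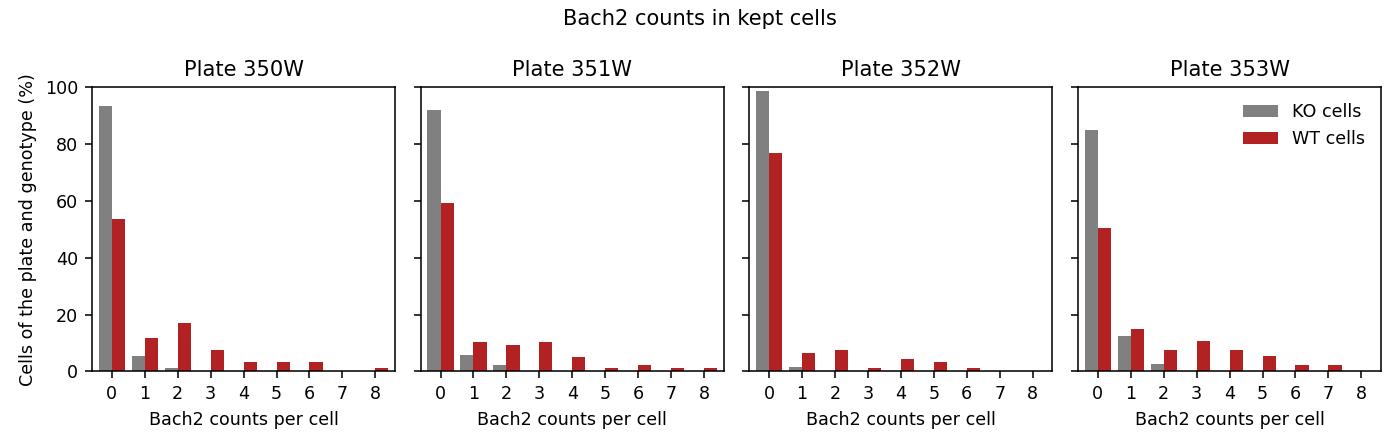
Share of kept cells (vertical axis, %) with each number of Bach2 counts (horizontal axis) on the 4 plates, KO cells in grey and WT cells in red. WT cells reach 8 Bach2 counts, whereas no KO cell has more than 2.

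In KO cells, 6 of 92, 7 of 89, 1 of 74 and 12 of 80 cells had a Bach2 count on plates 350W to 353W, a mean share of 7.68% ± 5.63 against 39.9% ± 11.7 in WT cells (SD, n = 4 plates each). Of these 26 KO cells, 21 had 1 count and 5 had 2. KO and WT cells were not matched for depth in these shares. Median totals of the KO cells were 2230, 3120, 2552.5 and 4483.5 counts. On 350W, 351W and 352W that was below the medians of both WT classes, given below. Of 384 WT wells 381 were kept, and of 96 KO wells per plate 92, 89, 74 and 80 were. Most of the 52 wells left out for low totals were therefore KO wells. They had no Bach2 count, but those of each plate held only 1458 to 7749 counts together. The lack of Bach2 in so few counts shows little. A cell type known to lack Bach2 was not set apart on the plates, so the share given by free RNA was not tested.

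The classes differed in depth before any matching. Median totals without Bach2 were 3126.5, 3831, 3960 and 5139 counts in positive cells, against 3036, 3778, 2738 and 4318.5 in negative cells on plates 350W to 353W. The ratio was 1.03 and 1.01 on the first pair of plates, 1.45 on 352W and 1.19 on 353W. With the cells of a plate split by total into 3 parts of nearly equal size, the positive share on 352W was 9.38% in the lowest part, 21.9% in the middle and 38.7% in the highest, while on 351W it was 43.8%, 34.4% and 43.8%. A negative cell is therefore one in which no Bach2 count was found at its depth, not one shown to lack Bach2 RNA. Cells just inside the threshold, with 1 Bach2 count, had median totals of 3280, 3784.5, 3812 and 3914 counts, and cells just outside it, with none, had the negative medians given above.

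Positive cells were spread over the WT wells. Among the first 48 WT wells of the plates 75 of 191 kept cells were positive, and among the rest 77 of 190. Of the 96 well numbers, 15 were positive on no plate, 30 on 1, 32 on 2, 18 on 3 and 1 on all 4.

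Each positive cell was then paired with a negative cell of the same plate whose total without Bach2 lay within 0.25 log2 units. This gave 145 pairs (43, 38, 22 and 42 on plates 350W to 353W) and left 7 positive cells unpaired, of which 5 were on 353W. Matched medians were 3132, 3754.5, 3960 and 5096 counts in positive cells and 3197, 3786, 3902.5 and 4463 in negative cells. Counts were summed per plate and class, which gave 88342 to 222633 counts in positive sums and 88645 to 214790 in negative sums.

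The first question was whether any gene other than Bach2 differed between the classes. No gene did so past the adjusted threshold. edgeR's quasi-likelihood test with plate as a block called 0 of 3109 genes at a Benjamini-Hochberg adjusted p below 0.05 (0%), and the lowest adjusted p was 0.45. At an unadjusted p below 0.05 there were 129 genes (4.15%), 67 higher in positive cells (2.16%) and 62 lower (1.99%). DESeq2 also called 0 genes and had 21 at an unadjusted p below 0.05. The median log2 fold change, positive over negative, was 0.01, and its quartiles were -0.18 and 0.19. The sums of the classes did not overlap for 41 genes (1.32%), of which 24 were higher and 17 lower in positive cells. The filter on low counts asked for enough counts in only as many sums as a class holds. A gene of few counts could thus be tested mainly through the class where it was high, in either direction. Lack of overlap in such a gene is a description and no separate support.

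Plate set the sums apart more than class. Across the tested genes, log2(CPM + 10) of the positive and negative sums of a plate correlated with Pearson's r between 0.77 and 0.90. Sums of the same class from different plates gave 0.55 to 0.73, and sums of different class and plate gave 0.54 to 0.73. CPM is counts scaled to a sum of 1000000 without Bach2. These are correlations across genes, which are not independent replicates.

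**Figure D2:**
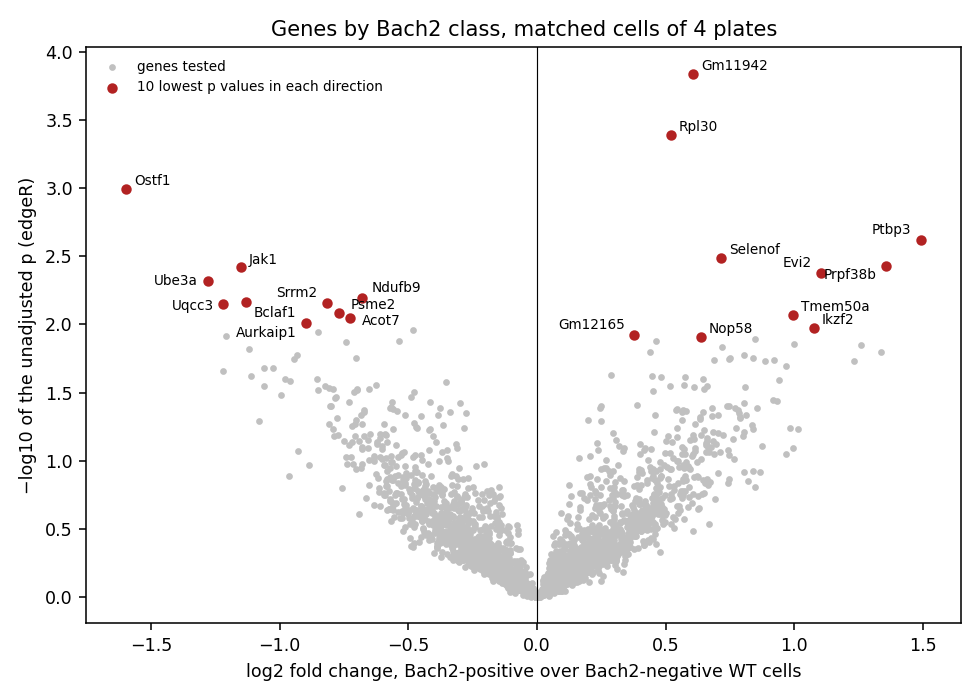
Each point is a tested gene, with its log2 fold change (Bach2-positive over Bach2-negative WT cells, horizontal axis) and −log10 of its unadjusted edgeR p (vertical axis). The 10 genes of lowest p in each direction are named in red, and none of them passed adjustment over the 3109 genes.

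The gene with the lowest p was Gm11942, annotated by RefSeq as a pseudogene. It had 1781, 1296, 1766 and 1343 CPM in positive cells on plates 350W to 353W, against 1025, 1109, 959 and 880 CPM in negative cells. Every positive sum lay above every negative sum. The log2 fold change was 0.61 (SE 0.12, approximate 95% interval 0.38 to 0.84, unadjusted p = 0.000145, edgeR adjusted p = 0.45), higher in 4 of 4 plates. Counts were spread over cells: 145 of 145 positive and 137 of 145 negative cells had at least 1, with at most 15 and 16 in a cell. Gm11942 passed the adjusted threshold under 3 of 16 other settings, with all cells thinned to 1500 counts (log2 fold change 0.78), without wells rich in immunoglobulin counts (0.56) and with no gene filter (0.63).

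KO cells, in which Bach2 counts were few, had 1137, 870, 1128 and 769 CPM of Gm11942, under every positive sum. On 350W and 352W the KO sum was above the negative sum of its plate, and on 351W and 353W it was below. By number of Bach2 counts, and without matching, the mean over plates was 1025 CPM in WT cells with 0, 1260 with 1, 1582 with 2 and 1655 with 3 or more. These WT cells also named the gene, so the series is a description and no separate support. On 350W the level rose at each step. On 351W it was 1108 CPM with 0 and 1062 with 1. From 2 to 3 or more it went from 1981 to 1967 CPM on 352W and from 1389 to 1372 on 353W. Among KO cells, which played no part in naming the gene, the 26 with a Bach2 count had 1042 CPM (138 counts) and the 309 without had 820 CPM, weighted by plate as the positive cells were. The KO difference had the same sign on 4 of 4 plates, and how many of all genes do so in KO cells was not counted. The KO difference was not tested, since plate 352W had a single such KO cell, and depth was not matched there.

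Gm11942 is also a near neighbour of Bach2, which was noticed after its value was seen. On chromosome 4, in the gene order of RefSeq (GRCm38.p6), it is the 9th annotated gene after Bach2. Of the 20 annotated genes on either side, 23 were in the count tables and 2 were tested. The other tested one, Pnrc1, a nuclear receptor coactivator, had 152 counts in positive and 142 in negative cells (log2 fold change 0.07, SE 0.20). Between Bach2 and Gm11942, Casp8ap2 had 31 and 18 counts, Mdn1 30 and 24, Ankrd6 28 and 16, and Lyrm2 9 and 19 in positive and negative cells. Bach2os, annotated next to Bach2, had 0 and 2 counts. All 21 untested neighbours together had 213 counts in positive and 212 in negative cells.

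Rpl30, a protein of the large ribosomal subunit, had the second lowest p. It had 1157, 805, 623 and 961 CPM in positive cells and 784, 637, 361 and 661 CPM in negative cells on plates 350W to 353W. The class ranges overlapped, but the positive sum was higher on each plate (log2 fold change 0.52, SE 0.11, edgeR adjusted p = 0.64). KO cells had 1394, 1382, 856 and 1282 CPM of Rpl30, above both WT classes on every plate. KO sums thus lay under the positive class of their plate for Gm11942 and above it for Rpl30. No source used here says how reads that match more than 1 place were counted, and values of Gm11942, of Gm12165, also a pseudogene, and of Rpl30 are uncertain because near-identical copies could share reads.

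**Figure D3:**
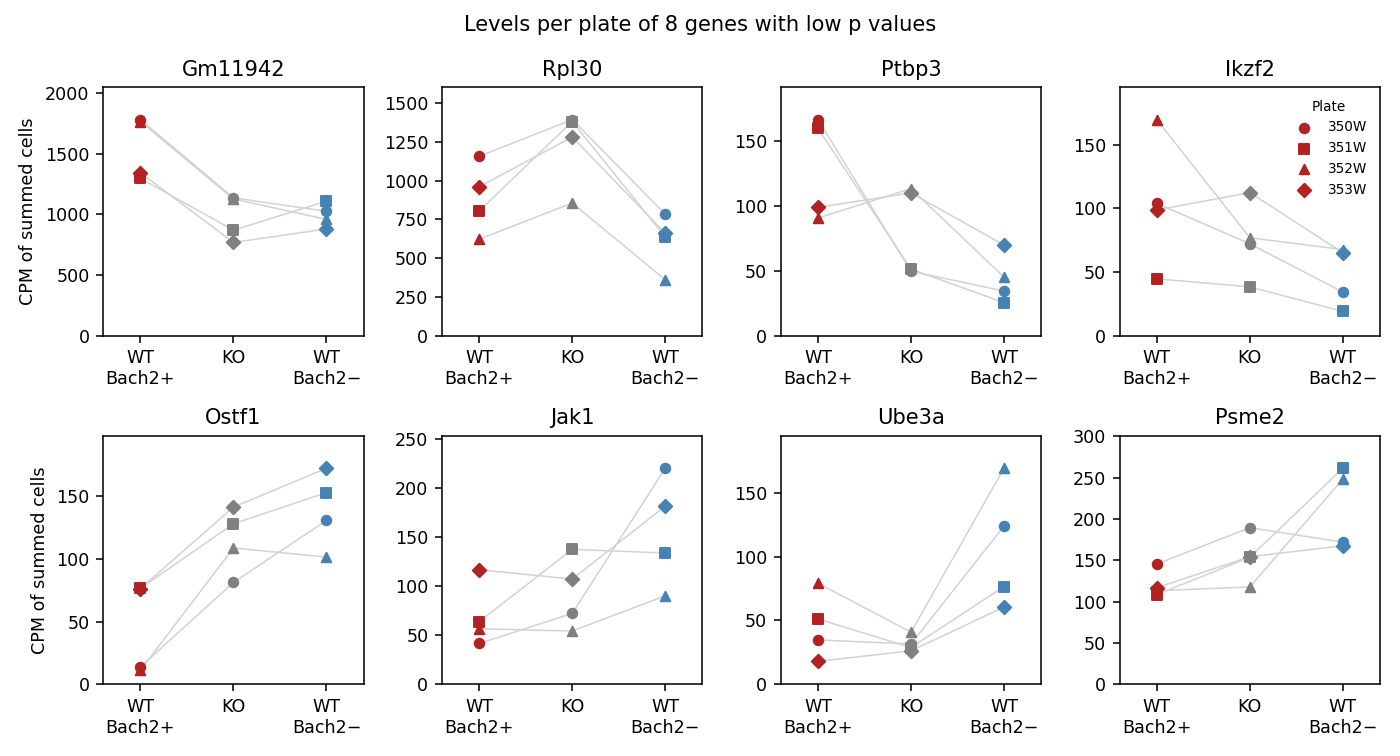
Levels (CPM of summed cells, vertical axis from 0) of 8 genes among the 20 of lowest p, in Bach2-positive WT cells, all KO cells and Bach2-negative WT cells; symbols are plates and grey lines join a plate. For Gm11942 the positive sums (1296 to 1781 CPM) lie above all KO and negative sums.

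The other genes of lowest p with higher sums in positive cells had fewer counts. Ptbp3, an RNA-binding protein of the polypyrimidine tract family, had 166, 160, 90.6 and 98.8 CPM in positive cells and 34.4, 25.5, 45.1 and 69.8 CPM in negative cells, without overlap (log2 fold change 1.49, SE 0.40, 79 against 28 counts). It passed the filter on low counts mainly through its positive sums, so the lack of overlap is no separate support. Ikzf2, which encodes the lymphoid transcription factor Helios, had 104, 44.7, 170 and 98.8 CPM in positive cells and 34.4, 19.1, 67.7 and 65.2 CPM in negative cells, and it was higher on each plate though the ranges overlapped (1.08, SE 0.37, 59 against 28 counts). Nop58, a core protein of small nucleolar ribonucleoproteins, had 157 counts in positive and 101 in negative cells (0.64, SE 0.22). Selenof, a selenoprotein of the endoplasmic reticulum, had 190 and 117 counts (0.72, SE 0.20), and Evi2 had 86 and 39 (1.10, SE 0.32). Prpf38b, a pre-mRNA splicing factor, had 77 and 34 (1.36, SE 0.39), Tmem50a had 103 and 54 (1.0, SE 0.33) and Gm12165 had 425 and 328 (0.38, SE 0.13). All 10 were higher in positive cells on 4 of 4 plates, as were 265 of all genes tested.

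Among genes with lower sums in positive cells, Ostf1, an adaptor protein first described in osteoclast stimulation, had the lowest p. It had 13.9, 76.6, 11.3 and 76.4 CPM in positive cells and 131, 153, 101.5 and 172 CPM in negative cells, without overlap. The counts were 32 against 89, and the log2 fold change was -1.60 (SE 0.39, edgeR adjusted p = 0.996). Jak1, a kinase of cytokine receptors, had 41.6, 63.9, 56.6 and 117 CPM in positive cells and 220, 134, 90.2 and 182 CPM in negative cells (-1.15, SE 0.33). Ube3a, a ubiquitin ligase, had 24 counts in positive and 58 in negative cells (-1.28, SE 0.38), and its KO levels of 26.2 to 40.8 CPM lay within the positive range of 18 to 79.2. Psme2, a subunit of the proteasome activator PA28, had 109 to 145.5 CPM in positive and 168 to 261 CPM in negative cells, without overlap (-0.77, SE 0.25).

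The remaining genes of lowest p with lower sums in positive cells also missed the adjusted threshold. Ndufb9, a subunit of respiratory complex I, had 118 counts in positive and 185 in negative cells (log2 fold change -0.68, SE 0.21). Uqcc3, an assembly factor of complex III, had 41 and 89 (-1.22, SE 0.39), and Srrm2, a component of spliceosomes, had 109 and 175 (-0.82, SE 0.26). Bclaf1 had 28 and 61 (-1.13, SE 0.36), Acot7, an acyl-CoA thioesterase, 99 and 152 (-0.73, SE 0.24) and Aurkaip1 65 and 113 (-0.90, SE 0.30). All 10 were lower in positive cells on 4 of 4 plates, as were 162 of all genes tested.

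The same 20 genes were looked at in the KO cells, which did not choose them. Between the 26 KO cells with and the 309 without a Bach2 count, 5 of the 10 genes higher in WT positive cells had a ratio on the same side, and 3 of the 10 lower ones did. The share over all tested genes was not computed, so these counts have no background to be read against. Ostf1 had 75.5 CPM in Bach2-positive and 137 CPM in Bach2-negative KO cells, and Psme2 83.1 and 179 CPM. On the opposite side from WT cells, Bclaf1 had 121 CPM in Bach2-positive and 56.9 CPM in Bach2-negative KO cells, Prpf38b 30.2 and 70.8 CPM, and Selenof 159 and 258 CPM. Prpf38b and Selenof were lower in Bach2-positive KO cells on 4 of 4 plates. Evi2 and Ikzf2, among those on the same side, were higher on only 1 of 4 plates. Counts in the positive KO cells were few, 4 for Prpf38b and 16 for Bclaf1.

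No tested gene of the Bach2 family or its partners was called. Of 15 members, 3 passed the filter on low counts and 0 were called, with a median log2 fold change of -0.14 beside 0.01 over all genes. Nfe2, which encodes the p45 subunit that pairs with small MAF proteins, had 23, 37, 11 and 61 counts in positive cells and 27, 45, 4 and 73 in negative cells (-0.14, SE 0.23). Nfe2l2, the regulator of the oxidative stress response also called Nrf2, had 5, 16, 3 and 24 counts in positive cells and 13, 17, 7 and 38 in negative cells. It was lower on each plate (-0.70, SE 0.33, edgeR unadjusted p = 0.051). Ncor1, a corepressor, had 62 counts in positive and 61 in negative cells (-0.04, SE 0.35).

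Counts of the untested family members were too few for the test. Bach1 had 6 counts in positive and 8 in negative cells. The small MAF genes had 18 and 16 (Mafk), 17 and 16 (Mafg) and 2 and 5 (Maff), and nearly all Mafk counts were on plate 353W. Batf, an AP-1 factor that binds sites like those of Bach2, had 13, 16, 9 and 7 counts in positive cells and 5, 9, 3 and 11 in negative cells. Genes reported elsewhere as targets of Bach2 or Bach1 had 3 of 18 members tested and 0 called. The ferritin genes Fth1 (-0.11, SE 0.11) and Ftl1 (-0.08, SE 0.13) lay near 0.

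The promoter of Bach2 is printed because Bach2 alone set the classes, and it was searched for the sites that BACH proteins bind. It runs from 250 bases before the start of the gene to 50 after it, on the plus strand of GRCm38.p6 at chr4:32417185-32417484, as RefSeq annotates it.
Bach2: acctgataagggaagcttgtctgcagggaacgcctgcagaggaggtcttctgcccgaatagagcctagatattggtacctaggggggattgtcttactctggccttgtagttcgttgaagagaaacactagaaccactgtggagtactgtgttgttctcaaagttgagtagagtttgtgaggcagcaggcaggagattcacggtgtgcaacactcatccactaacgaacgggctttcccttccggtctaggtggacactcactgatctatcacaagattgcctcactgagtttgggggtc
Neither TGAGTCA, the AP-1-like core, nor TGCTGA, a part of the MAF recognition element, was in this window on either strand, and so no base is in capitals. Over all 32851 RefSeq promoters of that length, 5.20% held the first and 19.5% the second, and the motifs can overlap. Of the 20 genes of lowest p, 4 of the 10 higher and 8 of the 10 lower ones had a promoter entry. TGAGTCA was in 0 of them, and TGCTGA was in 0 of the 4 and 2 of the 8. A letter match is not a binding site, and its lack says nothing of the factor.

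No stem cell marker was called. Of 30 HSC markers, 17 were tested and 0 called, 6 with a log2 fold change above 0 and 11 below, with a median of -0.05. Hlf, a stem cell transcription factor, was counted in 78 of 145 positive cells (53.8%, exact 95% interval 45.3 to 62.1) and 71 of 145 negative cells (49.0%, 40.6 to 57.4). These intervals pool the cells of all plates and cover counting error only. They leave out the spread between plates, where the negative share ran from 18.2% on 352W to 61.9% on 353W. The plates differed in direction: Hlf was counted in 25 of 43, 22 of 38, 11 of 22 and 20 of 42 positive cells on plates 350W to 353W, against 22, 19, 4 and 26 of as many negative cells. Mecom, another such factor, was counted in 15, 13, 9 and 19 positive and 17, 16, 3 and 17 negative cells. The receptor gene Kit was counted in 16, 20, 16 and 25 positive and 25, 20, 10 and 28 negative cells. On 352W all 3 genes were counted in more positive than negative cells, and on each other plate at least 1 of them was not.

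The genes of the sort markers also differed by plate. Slamf1, which encodes CD150, was counted in 1, 4, 0 and 0 positive and 1, 2, 0 and 0 negative cells on plates 350W to 353W. Cd48 was counted in no cell of 350W or 351W. On 352W it was counted in 11 of 22 positive and 6 of 22 negative cells, and on 353W in 4 of 42 and 4 of 42, although the cells are labelled CD48-. The sort itself was on surface protein, and these shares were not tested between classes.

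Ifitm1, Ifitm3 and Lmo2, the most abundant tested markers of that list, had log2 fold changes of -0.18 (SE 0.14), 0.09 (SE 0.14) and -0.01 (SE 0.12). The next genes were counted mostly on some plates, given in the order 350W to 353W. Flt3, a cytokine receptor gene of early progenitors, was counted in 0, 2, 16 and 16 positive and 0, 3, 14 and 16 negative cells. Vwf, which marks platelet-biased HSCs, was counted in 36, 3, 2 and 3 positive and 36, 6, 0 and 1 negative cells. Mpo, which encodes myeloperoxidase, was counted in 0, 0, 5 and 13 positive and 0, 0, 5 and 17 negative cells. Ctsg, which encodes the protease cathepsin G, was counted in 5 positive and 7 negative cells, none on 350W or 351W, with 5 counts in positive and 33 in negative cells.

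Lymphoid-primed genes were the list nearest to the known biology of Bach2. Of 24 members, 11 were tested and 0 called, 6 above and 5 below 0, with a median log2 fold change of 0.01. Ikzf2, given above, was the only one at an unadjusted p below 0.05. Tcf4 (-0.02, SE 0.14) and Etv6 (0.10, SE 0.28), both transcription factors, lay near 0, and the chemokine receptor Ccr9 was at 0.58 (SE 0.36).

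No marker of mature cells was called. Many were low or uneven, but not all: the granule gene Prtn3 averaged 252 CPM in positive and 230 CPM in negative sums. The B cell and plasma cell list summed to 441 to 7038 CPM in positive sums, 392 to 9786 in KO sums and 530 to 31587 in negative sums. Ighm, the immunoglobulin heavy chain of IgM, was counted in 22 of 22 positive and 22 of 22 negative cells of plate 352W, and in 0 of 38 and 0 of 38 cells of 351W. Wells with over 100 immunoglobulin counts were 1 of 152 positive cells, on 353W, and 4 of 229 negative cells, on 352W, and the value of Gm11942 without those wells is given above. Of 18 B cell markers in the tables, Vpreb1 and Igll1 were at 0 in positive cells and Ighd in negative cells. The other members had counts in both classes. Cd79a had 1 count in positive and 2 in negative cells, and Cd79b had 23 and 20. Cd74 had 200 and 196, Igkc 860 and 1096, Jchain 86 and 385 and Mzb1 20 and 5.

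Of the T and NK cell list, Lck alone was tested (0.00, SE 0.25), and Cd3e had 0 counts in positive and 1 in negative cells. Of its 14 members in the count tables, 4 were at 0 in positive and 2 in negative cells. Others had counts in both classes, among them Cd247 with 30 and 26 and Nkg7 with 29 and 24. The list summed to 180 to 296 CPM in positive and 178 to 268 CPM in negative sums. The neutrophil and monocyte list summed to 541 to 907 CPM in positive and 303 to 1918 CPM in negative sums, with 4 of 20 members tested. There Prtn3 was at 0.18 (SE 0.22), Mpo at -0.61 (SE 0.42) and Spi1, a myeloid and lymphoid transcription factor, at 0.03 (SE 0.34). In the megakaryocyte list Nrgn was at -0.01 (SE 0.22), Cd9 at 0.20 (SE 0.44) and Fli1 at 0.16 (SE 0.41). Car2, the one tested erythroid member, was at 0.01 (SE 0.18), and the endothelial genes Eng and Flt1 were at -0.10 (SE 0.27) and 0.16 (SE 0.33). The mast cell list had no tested member.

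**Figure D4:**
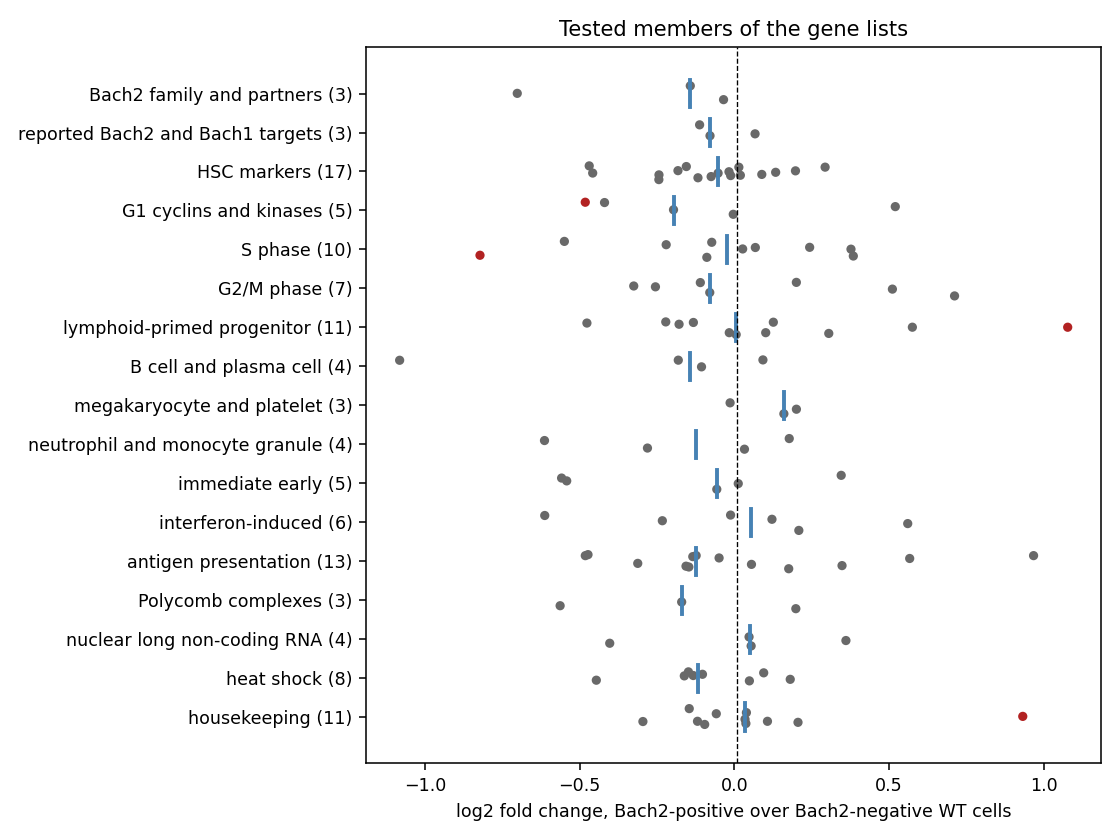
Log2 fold change (Bach2-positive over Bach2-negative WT cells) of each tested member of the lists with 3 or more tested members, whose number is in brackets. Blue bars are list medians, the dashed line is the median of all 3109 genes, and red points have an unadjusted edgeR p below 0.05; no list had a called gene.

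Cell cycle and quiescence genes had 0 called members. The quiescence and growth arrest list summed to 769, 1360, 600 and 656 CPM in positive cells on plates 350W to 353W, against 544, 1198, 496 and 419 CPM in negative cells. It was higher in positive cells on 4 of 4 plates, with overlapping ranges, and KO cells had 650, 1487, 670 and 455 CPM. The sums of the Bach2 family and the heat shock list were lower in positive cells on 4 of 4 plates, and no other list had 1 direction on every plate. Many lists were looked at, and these list sums were not tested. Of the 15 quiescence genes 2 were tested, with a median log2 fold change of 0.32. Ccnd2, a D-type cyclin of G1, had a mean of 269 CPM in positive and 378 CPM in negative cells and was lower on 4 of 4 plates (log2 fold change -0.48, SE 0.16, edgeR unadjusted p = 0.011, adjusted p = 0.996), while Ccnd3, of the same family, was at 0.52 (SE 0.31) and their kinase Cdk4 at -0.20 (SE 0.20). Txnip, an inhibitor of glucose uptake linked to HSC quiescence, averaged 226 CPM in positive and 157 CPM in negative cells and was higher on 4 of 4 plates (0.52, SE 0.21). Mcm5, a subunit of the replicative helicase, was at -0.82 (SE 0.34), and it was 1 of 10 S phase genes tested, whose median was -0.02. The other S phase genes of highest counts, Pcna, Nasp and Mcm6, were at 0.07 (SE 0.26), -0.55 (SE 0.32) and -0.07 (SE 0.37).

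The share of counts in S phase genes was 0.121%, 0.131%, 0.172% and 0.245% in positive cells and 0.127%, 0.140%, 0.149% and 0.246% in negative cells on plates 350W to 353W. It was higher in positive cells on 1 plate and lower on 3. G2/M genes held 0.0485%, 0.0639%, 0.24% and 0.208% in positive cells and 0.0461%, 0.0707%, 0.179% and 0.166% in negative cells. That share was higher on 3 plates, and plates differed more than classes. Mki67, a proliferation marker, was counted in 19 positive and 25 negative cells, and Top2a, a mitotic topoisomerase, in 45 and 46. Top2a (-0.08, SE 0.24), Tubb4b (0.51, SE 0.26) and Hmgb2 (0.20, SE 0.33) were the G2/M genes of highest counts.

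For the 5 measures of whole cells, the difference between classes within a plate was set against its spread over plates. Two-sided exact sign-flip tests over 4 plates allow no p under 1 in 8, and so could not have passed 0.05. The S phase difference, positive minus negative, was 0.0019 percentage points ± 0.014 (SD, n = 4, exact p = 1.0), and the G2/M difference was 0.0245 ± 0.032 (exact p = 0.375). Genes detected per cell, with each pair thinned to its lower total, were 2200 ± 349 in positive and 2188 ± 354 in negative cells (SD, n = 4), a difference of 11.9 ± 49.0 (exact p = 0.875). Ribosomal protein genes took 9.75% ± 0.42 of counts in positive and 9.50% ± 0.75 in negative cells (difference 0.255 ± 0.468, exact p = 0.5). Genes of the mitochondrial genome took 2.76% ± 2.39 and 2.52% ± 1.95 (difference 0.242 ± 0.489, exact p = 0.5). Adjusted over the 5 measures, p lay between 0.833 and 1.0.

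Within the ribosomal protein genes, 79 of 87 were tested and 0 called, with 45 above and 34 below 0 and a median log2 fold change of 0.02. Rpl30 was the one at an unadjusted p below 0.05 with a higher level in positive cells, and Rps29 (-0.48, SE 0.20) and Rps7 (-0.30, SE 0.13) were the ones with a lower level. The mitochondrial share of plate 352W was 6.12% in positive and 5.15% in negative cells, above all sums of other plates, of which the highest was 2.67%.

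The remaining lists also had 0 called genes. Antigen presentation genes had 13 of 15 members tested, 5 above and 8 below 0 (median -0.12), with B2m at -0.14 (SE 0.11), H2-K1 at -0.12 (SE 0.12) and H2-D1 at 0.06 (SE 0.14). Heat shock genes had 8 of 13 tested (median -0.12), with Hsp90ab1 at -0.10 (SE 0.11), Hspa8 at -0.13 (SE 0.17) and Hspe1 at -0.15 (SE 0.26). Interferon-induced genes had 6 of 18 tested (median 0.05), with Ifitm2 at -0.01 (SE 0.21), Bst2 at -0.23 (SE 0.37) and Irf1 at -0.61 (SE 0.41). Immediate early genes had 5 of 15 tested (median -0.06), with Jun at 0.01 (SE 0.30), Fos at -0.56 (SE 0.35) and Nfkbia at 0.34 (SE 0.28).

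Polycomb genes, of interest because Phf19 is a Polycomb factor, had 3 of 30 members tested and 0 called. Rbbp7 was at -0.17 (SE 0.21), Jarid2 at 0.20 (SE 0.32) and Phc1 at -0.56 (SE 0.32). Hoxa9, the one tested Hox gene, was at -0.11 (SE 0.36), and Nfix, a factor of the quiescence list, at 0.13 (SE 0.24). Nuclear long non-coding RNAs had Malat1 at 0.05 (SE 0.11), Gas5 at 0.05 (SE 0.13) and Xist at -0.40 (SE 0.28). Housekeeping genes, with 11 of 17 tested, had a median of 0.03, with Eef1a1 at 0.04 (SE 0.10), Actb at -0.15 (SE 0.10) and Eef2 at 0.21 (SE 0.13), while Ywhaz was at 0.93 (SE 0.40), the one at an unadjusted p below 0.05.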

How the data were processed

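Each of the 4 MARS-Seq plates has a table of whole-number counts per gene and well, deposited by the authors without normalization; the submitters' processing notes name GRCm38.p4 and FastQC, and no source used here names the aligner or counter. Symbols were matched for 25714 of 25832 gene IDs, and genes that a table lacks were set to 0 in it. WT cells with 500 or more counts were kept, without doublet calling. Positive and negative cells were paired 1 to 1 within plates by total without Bach2 (optimal assignment, at most 0.25 log2 units apart), and Bach2 was left out of sums and tests. Sums were tested with edgeR 4.0.16 in R 4.3.3 (filterByExpr, TMM, plate block, quasi-likelihood, Benjamini-Hochberg over all genes tested, threshold 0.05), and the model was tested on simulated data. Standard errors are the log2 fold change over the square root of F. DESeq2 1.42.0 was an alternative. Both classes of a plate share that plate, which is the source of the pairing. Measures were compared by exact sign-flip tests with Python 3.11.15. Genes named are the 10 of lowest p per direction (called genes first), tested Bach2 family members, the 3 tested genes of highest counts in every other list, and a panel of markers; others were named after their values were seen. The members and lists were chosen with earlier results of these data known. Alternatives changed matching, thinning, the Bach2 and cell minimums, immunoglobulin-rich wells, filter, scaling, model and plates.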

Additional observations from a re-analysis of the deposited data

Results flagged for a closer look

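In 59 sets of 4 plate values, 4 had 1 plate far from the other plates by Dixon's ratio at its 95% limit; chance flags about 1 set in 20. The mitochondrial difference between classes was 0.969 percentage points on plate 352W and -0.0937 to 0.0586 on the others (ratio 0.857). Prpf38b in negative cells was 166 CPM on 351W and 11.3 to 20.6 CPM on the others (ratio 0.939). Acot7 was 457 CPM on 350W and 22.6 to 95.8 CPM on the others in positive cells (ratio 0.832), and 592 CPM on 350W and 90.2 to 159 CPM on the others in negative cells (ratio 0.862).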

How the results depend on the processing

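The main count of 0 called genes became 1 with all cells thinned to 1500 counts and 1 without wells of over 100 immunoglobulin counts, Gm11942 both times, and 6 of 23600 genes with no gene filter, among them Gm11942 and the light chain genes Iglc1, Iglc4 and Iglv1. It was 0 under the other alternatives for this count, also without any single plate, and 0 with no replicate block (42 genes at an unadjusted edgeR p below 0.05, against 129 with the block). The adjusted p of Gm11942 ran from 0.000209 to 0.999 over 16 alternatives, and its log2 fold change from 0.54 to 0.78. All 20 genes of lowest p had the same sign under every alternative in which they were tested, as did 20 of the 58 other named genes. The 20 were picked by p and had 1 direction on 4 of 4 plates, and the alternatives reuse the same plates. Their kept sign was thus largely given by the choice and is no separate support. The S phase difference was -0.00515 percentage points without wells of over 100 immunoglobulin counts. Leaving out 1 plate at a time, it lay between -0.00516 (without 352W) and 0.00544, and the difference in genes detected between -11.3 (without 352W) and 27. Without 352W the ribosomal difference was 0.0537, the mitochondrial one 0.000125 and the G2/M one 0.0124 percentage points, each under the value over all plates by more than 1.5 times. Alternatives in the choice of cells also moved these differences by more than 1.5 times. Genes detected differed by 171 without matching, 3.93 and 3.87 with cells thinned to 1000 and 1500 counts, and 1.31 without the immunoglobulin-rich wells. The ribosomal difference was 0.119 without matching, 0.0860 without those wells and 0.428 with 2 or more Bach2 counts in positive cells. The mitochondrial one was 0.114 without matching, 0.0638 and 0.148 with cells thinned to 1000 and 1500 counts, and 0.116 without those wells. The S phase one was 0.0209 without matching, 0.0173 and 0.0109 with cells thinned to 1000 and 1500 counts, 0.00561 with closer pairs and 0.00650 with 2 or more Bach2 counts. The G2/M one was 0.0397 without matching and 0.0379 with cells thinned to 1000 counts. All 4 plates had 1 sign, the smallest exact p that 4 plates allow, for G2/M with cells thinned to 1500 counts (0.0352) and with 2 or more Bach2 counts (0.0359), for mitochondrial genes thinned to 1500, for genes detected thinned to 1000 and for S phase without matching. Requiring 1000 counts left the same 145 pairs. The median standard error of a tested gene was 0.31 on the log2 scale.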
